A study of Mus musculus with 16 samples.

Results

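App, Aplp1 and Aplp2 make up the amyloid precursor protein family of the mouse. They were taken as the rows of the count table that carry these 3 gene names, 3 of 55385 genes, and all 3 passed the filter on low counts. The data are polyA RNA libraries of cortex taken at 5 months of age, 16 in all and 4 for each of 4 genotypes. The groups were wild-type C57BL/6J (WT), Dp16, 5xFAD, and animals with both alterations (5xFAD-Dp16). The labels name the C57BL/6J strain for the wild-type group alone. WT, Dp16 and 5xFAD were 2 males and 2 females each, and the 4 5xFAD-Dp16 animals were male. A Dp16 mouse has a long segment of 1 chromosome 16 in duplicate, the region that matches much of human chromosome 21, so that the genes there are present in 3 copies in place of 2. A 5xFAD mouse carries human transgenes, mutant APP among them, under the control of the neuronal Thy1 promoter. App lies in the duplicated segment, and its paralogs lie on other chromosomes.

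The family encodes single-pass membrane proteins with a large outer part, which acts in cell adhesion and synapse formation, and a short tail inside the cell that binds adaptor proteins. Each member is cut in steps: alpha- or beta-secretase sheds the outer part, and gamma-secretase then cuts the remaining stub within the membrane. For App, the beta-secretase route releases the amyloid-beta peptide of Alzheimer's plaques. The paralogs are cut by the same enzymes but have no amyloid-beta, and the members can in part stand in for each other in knockout mice. In the brain, App and Aplp2 are made in many cell types and Aplp1 mainly in neurons.

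On GRCm38 with the Gencode M21 annotation, App (ENSMUSG00000022892.11) covers chr16:84949685-85173766 on the minus strand, a span of 224 kb with 11 annotated transcripts, 6 of them coding. Aplp1 (ENSMUSG00000006651.8) covers chr7:30434982-30445535 on the minus strand, a span of 10.6 kb. Aplp2 (ENSMUSG00000031996.17) covers chr9:31149557-31211815 on the minus strand, a span of 62.3 kb. The main coding transcripts have 16 exons and 695 codons for App, 17 exons and 654 codons for Aplp1, and 17 exons and 751 codons for Aplp2. Over the aligned translations of these transcripts, App and Aplp2 were identical at 56.8% of 650 residues, App and Aplp1 at 44.4% of 622, and Aplp1 and Aplp2 at 46.5% of 635.

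The stretch of App that encodes amyloid-beta, a peptide that the paralogs do not give rise to, is shown here. It spans codons 597 to 638 in exons 14 and 15 of the main transcript, between chr16:84962794-84965720, is printed 5′ to 3′ as spliced on the minus strand, and comes from the Gencode M21 transcripts.

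App, amyloid-beta stretch: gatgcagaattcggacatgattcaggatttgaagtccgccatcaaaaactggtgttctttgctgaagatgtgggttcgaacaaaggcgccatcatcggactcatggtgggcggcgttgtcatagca

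Of the 42 residues that this stretch encodes, 16 (38.1%) were identical in Aplp2 and 8 (19.0%) in Aplp1. Both shares were below those of the whole proteins. The whole-protein shares leave out residues opposite a gap, whereas those of this stretch and of the tail below count them as not identical. Of the last 24 residues of App, 18 (75%) were identical in Aplp2, more than over the whole protein, and 11 (45.8%) in Aplp1, close to the share over the whole protein. The coding stretch around the tail's tyrosine motif, which binds adaptors and directs endocytosis, is shown for the 3 genes with the 6 codons of the motif in capitals. The App stretch lies in exon 16 at chr16:84955340-84955393, the Aplp1 stretch in exon 17 at chr7:30435299-30435352 and the Aplp2 stretch in exon 17 at chr9:31150880-31150933, each 5′ to 3′ on the minus strand of GRCm38.

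App: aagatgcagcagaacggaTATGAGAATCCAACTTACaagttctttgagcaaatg
Aplp1: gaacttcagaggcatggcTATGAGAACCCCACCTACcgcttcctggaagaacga
Aplp2: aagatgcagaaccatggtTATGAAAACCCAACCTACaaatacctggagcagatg

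The transcripts of the members share no 31-base word with each other. Of the 13095 distinct 31-base words in App transcripts, 0 occurred in Aplp1 or Aplp2, and none of the 3042 words of Aplp1 or the 5894 words of Aplp2 occurred in another gene. In App, 271 words were found in other genes of the annotation. Genes annotated on the opposite strand within App held few reads: Gm49227 had at most 74 and Gm10791 at most 31 in a library, against 9149 or more for App. Human APP is not a row of the count table, and reads from the transgene could not be told apart from mouse App reads in these counts.

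The libraries held 12483286 to 20385010 counted reads, of which 7.71% to 10.99% were mitochondrial. Thy1, whose promoter drives the 5xFAD transgenes, ran from 1302 to 1880 counts per 1000000 counted reads (CPM) in the 8 libraries with the transgenes and from 811 to 969 in the 8 without them. Each of the 10 excitatory neuron markers was detected, with a summed level of 2201 to 6583 CPM. Striatum markers summed to 1196 to 2213 CPM in the 16 libraries, and choroid plexus and ependyma markers to 722 CPM in 5xFAD-Dp16 replicate 2 against 11.5 to 118 in the other libraries. The libraries also differed in how a gene's deviation from its mean depended on transcript length, with a rank correlation across genes from -0.48 (5xFAD replicate 3) to 0.52 (5xFAD-Dp16 replicate 1), and on GC content, from -0.35 to 0.34. Markers, length and GC content moved with the members, as given with the results.

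All 3 genes were abundant. App ranked 48th by mean CPM among 21856 protein-coding genes, Aplp1 140th and Aplp2 687th. The members therefore rested on many reads in each library, with 1653 for Aplp2 in 5xFAD replicate 3 as the lowest count. The order of App and Aplp1 per unit of length depended on the length taken for App. In the deposited RPKM values (CPM divided by transcript length in kilobases), the mean over 16 libraries was 323 for Aplp1, 165 for App and 67.6 for Aplp2. These values used 8167 bases for App, the length of its longest coding transcript, which has a longer 3′ end. Per kilobase of the main transcript (3176 bases for App), WT had 364 ± 94.1 CPM of App, 341 ± 89.8 of Aplp1 and 73.8 ± 26.5 of Aplp2 (SD, n = 4). On that scale the difference between App and Aplp1 in WT was smaller than their spread. With the duplication App was the higher, at 507 ± 66.7 against 353 ± 68.2 for Aplp1 in Dp16 and 569 ± 77.2 against 367 ± 65.8 in 5xFAD-Dp16. Aplp2 was the lowest on both scales.

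App stood at 1114, 816, 1151 and 1544 CPM in WT replicates 1 to 4, a mean of 1156 ± 299 (SD, n = 4). The Dp16 libraries had 1527, 1632, 1892 and 1392 CPM, a mean of 1611 ± 212. Of these, 2 Dp16 libraries lay within the WT range and 2 above it, with WT replicate 4 the WT library that overlapped. In 5xFAD, App stood at 928, 890, 542 and 912 CPM (mean 818 ± 185), and in 5xFAD-Dp16 at 2162, 1670, 1770 and 1621 CPM (mean 1806 ± 245). The lowest 5xFAD-Dp16 library was above the highest 5xFAD library, and 5xFAD replicate 3 lay well below its group. By mean level the order was 5xFAD-Dp16, Dp16, WT, 5xFAD, in which 5xFAD-Dp16 and Dp16 overlapped, as did Dp16 and WT, and WT and 5xFAD.

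Aplp1, on a chromosome outside the duplication, had 728, 604, 772 and 1097 CPM in WT (mean 800.0 ± 211) and 910.0, 740.1, 1007 and 654 in Dp16 (mean 828 ± 160.0). Its 5xFAD libraries had 682, 655, 308 and 497 CPM (mean 536 ± 172), and its 5xFAD-Dp16 libraries 1054, 731, 912 and 740 (mean 859 ± 154). The WT and Dp16 values were interleaved, and the lowest 5xFAD-Dp16 library was above the highest of 5xFAD. Aplp2, the widely expressed paralog, had 237, 178, 254 and 404 CPM in WT (mean 268 ± 96.4) and 251, 237, 335 and 209 in Dp16 (mean 258 ± 54.5). The 5xFAD libraries had 224, 211, 98.0 and 178 CPM of Aplp2 (mean 178 ± 56.7), and the 5xFAD-Dp16 libraries 372, 254, 297 and 231 (mean 288 ± 62.3). As for Aplp1, the WT and Dp16 values were interleaved and the 5xFAD and 5xFAD-Dp16 values did not overlap. Of all 17019 genes tested, 7.94% were higher in 5xFAD-Dp16 than in 5xFAD with no overlap in CPM, so this separation was common among genes. WT replicate 4 and 5xFAD-Dp16 replicate 1 had the highest values of their groups for each of the 3 genes, and 5xFAD replicate 3 the lowest of its group.

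**Figure D1:**
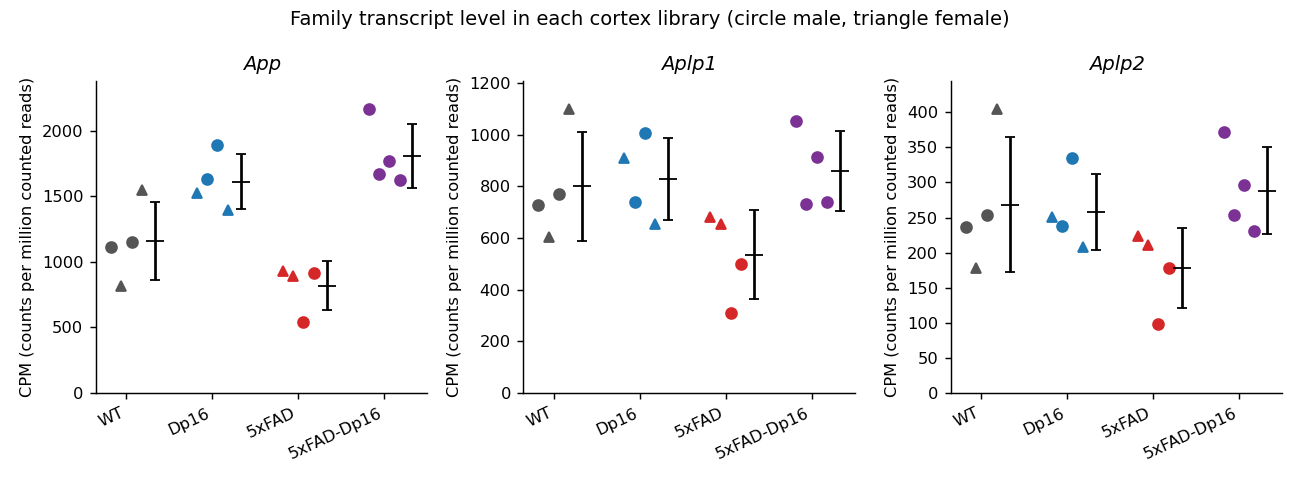
Transcript level of App, Aplp1 and Aplp2 in CPM (vertical axes, from 0) in each library by genotype, with circles for males and triangles for females; the bar beside each group is the mean with its SD (n = 4). App is higher in 5xFAD-Dp16 (1621 to 2162 CPM) than in 5xFAD (542 to 928), and 5xFAD replicate 3 is the lowest 5xFAD library in each panel.

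The first question is how far App moved with its extra copy, and whether the paralogs, which keep 2 copies, moved as well. In Dp16 against WT the fitted log2 difference of App was 0.48 (SE 0.18), a 1.40-fold higher level with a 95% interval of 1.08 to 1.81, and it did not pass the test (edgeR quasi-likelihood, adjusted p = 1.0). With the transgenes present, 5xFAD-Dp16 against 5xFAD, the difference of App was 1.07 (SE 0.20), or 2.1-fold with an interval of 1.57 to 2.79, and this also missed the threshold (adjusted p = 0.0795). Averaged over both backgrounds, App rose by 0.78 (SE 0.13) on the log2 scale, 1.71-fold with an interval of 1.41 to 2.08, and passed the test (adjusted p = 0.0249). The Dp16 comparison called 0.0176% of genes in either direction, the 5xFAD-Dp16 comparison with 5xFAD 0.0%, and their mean 0.094%. The difference of App between 5xFAD-Dp16 and 5xFAD did pass with DESeq2 (1.06, adjusted p = 7.91e-05), in males alone (1.20, 0.00819), without the sex term (1.06, 0.0214), with only these groups in the model (1.18, 0.00443), with no filter on low counts (1.09, 3.24e-10) and with the length trend removed at the longest App transcript (0.73, 0.000603). It missed with RLE scaling (1.06, 0.0813), with the GC trend removed (1.13, 0.0697), without the libraries WT replicate 2 and 5xFAD replicate 3 (0.94, 0.143), and with the length trend removed at the main transcript lengths (1.02, 0.057). With 1 library left out it passed in 2 of 16 fits. As 5xFAD-Dp16 is all male, the fit of 5xFAD-Dp16 and 5xFAD alone, with its sex term, compares the same males as the males-only fit. The 2 settings are not separate support. In Dp16 against WT, App passed with the length trend removed at the longest App transcript (0.45, adjusted p = 0.0325) and not at the main transcript lengths (0.48, 0.684). For 5xFAD-Dp16 against 5xFAD, edgeR found 4049 of 17019 genes at an unadjusted p under 0.05, and DESeq2 called 740. The intervals for Dp16 against WT and for the mean held the 1.5-fold ratio of 3 copies to 2, and the interval for 5xFAD-Dp16 against 5xFAD lay above it, its value 2.46 SE over 1.5-fold. That gap was 1.54 SE without 5xFAD replicate 3 (log2 difference 0.88) and 1.93 SE without 5xFAD-Dp16 replicate 1 (0.98). With the length trend removed it was 1.74 SE at the longest App transcript (0.73) and 2.55 SE at the main transcript lengths (1.02). The gap was 2.67 SE with the GC trend removed (1.13) and 3.44 SE in males alone (1.20). In males alone the 5xFAD group is replicates 3 and 4, so replicate 3, the lowest 5xFAD library, weighs more there.

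The call of App in the mean over both backgrounds depended on single libraries. It held in 7 of 16 fits that each left out 1 library, with an adjusted p between 0.00467 and 0.113. It was lost without WT replicate 1 (0.11) or 3 (0.113), Dp16 replicate 1 (0.0909) or 2 (0.0569), 5xFAD replicate 4 (0.0707), or any of 5xFAD-Dp16 replicates 1 (0.0697), 2 (0.0617), 3 (0.0626) and 4 (0.0563). The log2 difference itself stayed between 0.68 and 0.83, the lowest without 5xFAD replicate 3.

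Neither paralog passed the test in a comparison of Dp16 carriers with non-carriers. Aplp1 differed by 0.07 (SE 0.21, 95% interval -0.37 to 0.50) on the log2 scale between Dp16 and WT, and by 0.74 (SE 0.23, adjusted p = 0.155 by edgeR) between 5xFAD-Dp16 and 5xFAD. Aplp2 differed by -0.03 (SE 0.24, interval -0.54 to 0.47) and by 0.72 (SE 0.27, adjusted p = 0.158). The mean over both backgrounds was 0.40 (adjusted p = 0.322) for Aplp1 and 0.34 (adjusted p = 0.354) for Aplp2. Without 5xFAD replicate 3 Aplp2 was 0.47 in 5xFAD-Dp16 against 5xFAD and 0.21 in the mean, and without that library and WT replicate 2 the mean was 0.26 for Aplp1 and 0.18 for Aplp2. With the GC trend removed Aplp1 was 0.45 and 0.25. In males alone both paralogs passed in the mean, Aplp1 at 0.59 (adjusted p = 0.0268) and Aplp2 at 0.58 (0.0394), and in 5xFAD-Dp16 against 5xFAD, Aplp1 at 0.98 (0.00842) and Aplp2 at 0.95 (0.0133). The male 5xFAD libraries are replicates 3 and 4, and replicate 3 was the lowest of its group. Both paralogs passed 5xFAD-Dp16 against 5xFAD in the fit of these 2 groups alone (0.96 and 0.93), which compares the same males. They also passed it without the filter on low values (0.76 and 0.74), where they passed in the mean as well. Aplp1 passed it with DESeq2 (0.74). Each of the 3 members thus had a larger difference between 5xFAD-Dp16 and 5xFAD than between Dp16 and WT. The test of that change, the interaction, gave 0.58 (SE 0.26) for App, 0.67 (SE 0.30) for Aplp1 and 0.75 (SE 0.35) for Aplp2, each with an adjusted p of 0.522. Without WT replicate 4 the interaction was 0.35 for App and 0.43 for Aplp2. It was 0.28 for App with the length trend removed at the longest App transcript, and 0.40 for Aplp1 with the GC trend removed. The interaction called 0.0% of genes in edgeR, with 1591 genes at an unadjusted p under 0.05 and 21 called by DESeq2.

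Fitted levels of the family were lower in 5xFAD than in WT, none past the test. In 5xFAD against WT the log2 difference was -0.47 (SE 0.18, adjusted p = 0.368) for App, -0.57 (SE 0.21, adjusted p = 0.345) for Aplp1 and -0.57 (SE 0.24, adjusted p = 0.414) for Aplp2 by edgeR, where 0.176% of genes were called. All 3 passed with no filter on low counts. App passed with the length trend removed at its longest transcript (-0.42, adjusted p = 0.023) and not at the main transcript lengths (-0.43, 0.256). Without WT replicate 4 the difference was -0.29 for App and -0.32 for Aplp2, and with the GC trend removed -0.35 for Aplp1. Thus App counts in 5xFAD were not above WT although a human APP transgene was present. In 5xFAD-Dp16 against Dp16, where 0.0176% of genes were called, the differences were 0.12 for App (adjusted p = 0.868), 0.10 for Aplp1 and 0.18 for Aplp2. In 5xFAD-Dp16 against WT, where 0.047% of genes were called, App differed by 0.60 (SE 0.19, adjusted p = 0.415), Aplp1 by 0.17 and Aplp2 by 0.15. These comparisons share groups with each other and are not independent.

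**Figure D2:**
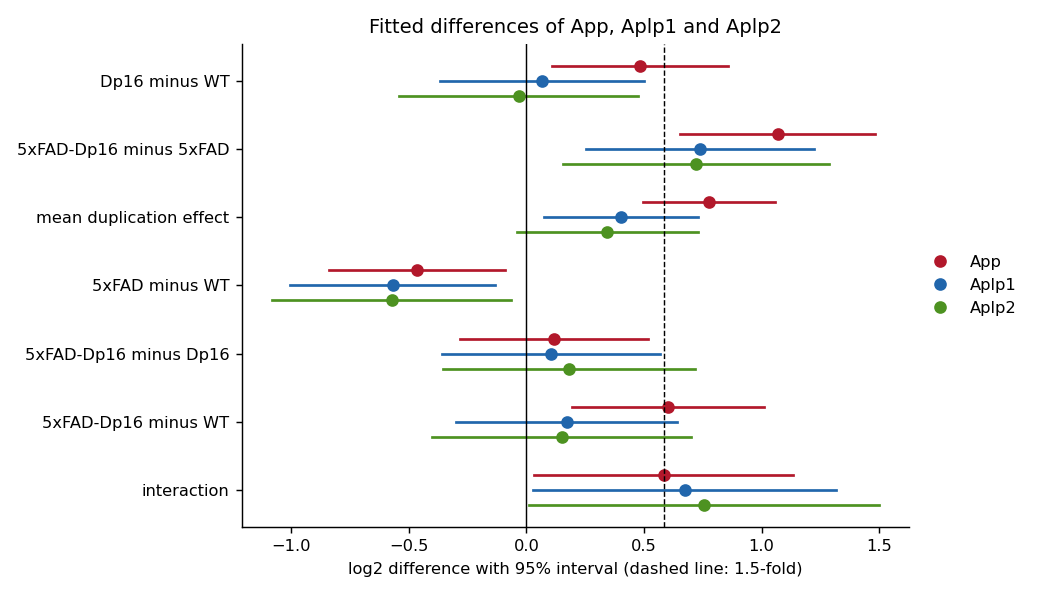
Fitted log2 differences of App, Aplp1 and Aplp2 (points) with 95% intervals (lines) in each comparison; the solid vertical line is no difference and the dashed line 1.5-fold. App lies to the right of both paralogs in the comparisons of Dp16 carriers with non-carriers, and the 3 genes lie together in 5xFAD minus WT (-0.47, -0.57 and -0.57) and 5xFAD-Dp16 minus Dp16.

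Since the 3 genes went up and down together from library to library, App was next read against its own paralogs within a library. Such a ratio of read counts does not depend on the library total. The App to Aplp2 ratio was 4.71, 4.6, 4.53 and 3.82 in WT and 6.09, 6.87, 5.64 and 6.67 in Dp16. It was 4.14, 4.22, 5.54 and 5.12 in 5xFAD and 5.80, 6.57, 5.96 and 7.03 in 5xFAD-Dp16. Each of the 8 libraries with the duplication was above each of the 8 without it. The closest were Dp16 replicate 3 at 5.64 and 5xFAD replicate 3 at 5.54. The share of all genes separated in this way over both backgrounds was not computed. Within a background, the ratio to Aplp2 was higher without overlap for 1.33% of genes tested in Dp16 against WT. In 5xFAD-Dp16 against 5xFAD this share was 0.282%. The means were 4.41 ± 0.40 in WT, 6.32 ± 0.56 in Dp16, 4.75 ± 0.69 in 5xFAD and 6.34 ± 0.57 in 5xFAD-Dp16 (SD, n = 4).

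The App to Aplp1 ratio was 1.53, 1.35, 1.49 and 1.41 in WT (mean 1.45 ± 0.081) and 1.68, 2.21, 1.88 and 2.13 in Dp16 (mean 1.97 ± 0.24). It was 1.36, 1.36, 1.76 and 1.84 in 5xFAD (mean 1.58 ± 0.25) and 2.05, 2.28, 1.94 and 2.19 in 5xFAD-Dp16 (mean 2.12 ± 0.15). Within each background the groups with and without the duplication did not overlap, and Dp16 replicate 1 at 1.68 lay below the 2 male 5xFAD libraries. As a share of the family's reads, App made up 52.1% ± 1.39 in WT, 59.9% ± 2.70 in Dp16, 54.0% ± 3.85 in 5xFAD and 61.3% ± 1.71 in 5xFAD-Dp16.

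With the duplication, the App to Aplp1 ratio was 1.36-fold higher in Dp16 than in WT and 1.35-fold higher in 5xFAD-Dp16 than in 5xFAD. The App to Aplp2 ratio was 1.43-fold and 1.34-fold higher. Each of these 4 differences had an exact two-sided permutation p of 0.0286, the smallest that 4 against 4 allows, and an adjusted p of 0.0714 over the 15 ratio comparisons. These tests do not account for sex, and 5xFAD-Dp16 is all male. In males alone, with 2 libraries in the smaller groups and no test, the log2 difference between 5xFAD-Dp16 and 5xFAD was 0.23 for App to Aplp1, against 0.43 in all libraries, and 0.25 for App to Aplp2, against 0.42. With the length trend removed at the longest App transcript it was 0.10 and 0.22, and at the main transcript lengths 0.34 and 0.46. Few genes were separated in this way with the transgenes: 0.341% of the genes tested had a ratio to Aplp1, and 0.282% a ratio to Aplp2, that was higher in 5xFAD-Dp16 than in 5xFAD with no overlap. In Dp16 against WT these shares were 0.899% and 1.33%.

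Averaged over both backgrounds, a summary chosen after seeing the data, the log2 difference was 0.44 (1.36-fold) for App to Aplp1 and 0.47 (1.39-fold) for App to Aplp2. A permutation of genotypes within each background gave p = 0.000408 for both, the smallest that 4900 assignments can give. Groups that do not overlap in either background fix that p, so it restates the separation and adds no support. With 1 library left out, the differences ranged from 0.40 to 0.48 and from 0.44 to 0.51, and in males alone they were 0.33 and 0.34. Both point values, 1.36-fold and 1.39-fold, were below the 1.5-fold ratio of gene copies, with no interval computed. With the length trend removed and App at its longest transcript, they were 0.24 (adjusted permutation p = 0.242) and 0.35 (0.071), no longer past the threshold. With each member at the length of its main transcript they were 0.38 (adjusted permutation p = 0.00429) and 0.49 (0.00122). The GC trend was not removed from the ratios. In the edgeR fit with it removed, the mean difference was 0.80 for App, 0.25 for Aplp1 and 0.35 for Aplp2. In the main fit these were 0.78, 0.40 and 0.34. Whether the ratios stay below 1.5-fold without the GC trend was not tested.

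The paralogs were also read against each other. The Aplp1 to Aplp2 ratio was 3.06 ± 0.28 in WT, 3.22 ± 0.28 in Dp16, 3.02 ± 0.16 in 5xFAD and 3.00 ± 0.18 in 5xFAD-Dp16 (SD, n = 4), and the groups overlapped in each comparison. Exact permutation p-values for the 5 comparisons of this ratio ran from 0.229 to 0.971. Over both backgrounds the difference was 0.03 (permutation p = 0.56), and 0.11 (adjusted p = 0.0486) with the length trend removed and members at the length of their main transcript. The transgenes moved neither App ratio past the test: App to Aplp1 was 1.08-fold higher in 5xFAD than in WT (exact permutation p = 0.371) and App to Aplp2 1.07-fold higher (p = 0.486). Inside the 5xFAD group, the 2 males had App to Aplp1 ratios of 1.76 and 1.84 and the 2 females 1.36 and 1.36. The GC trends of these libraries differed as well, at -0.313 and -0.352 in the males and -0.088 and -0.094 in the females. Sex and GC trend cannot be told apart in this group. In WT the males had 1.53 and 1.49 and the females 1.35 and 1.41, whereas in Dp16 the sexes overlapped. The sex term of the fit, male minus female, was -0.01 for App, -0.22 for Aplp1 and -0.17 for Aplp2 on the log2 scale, none past the test (adjusted p = 0.994, 0.889 and 0.889 by edgeR).

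**Figure D3:**
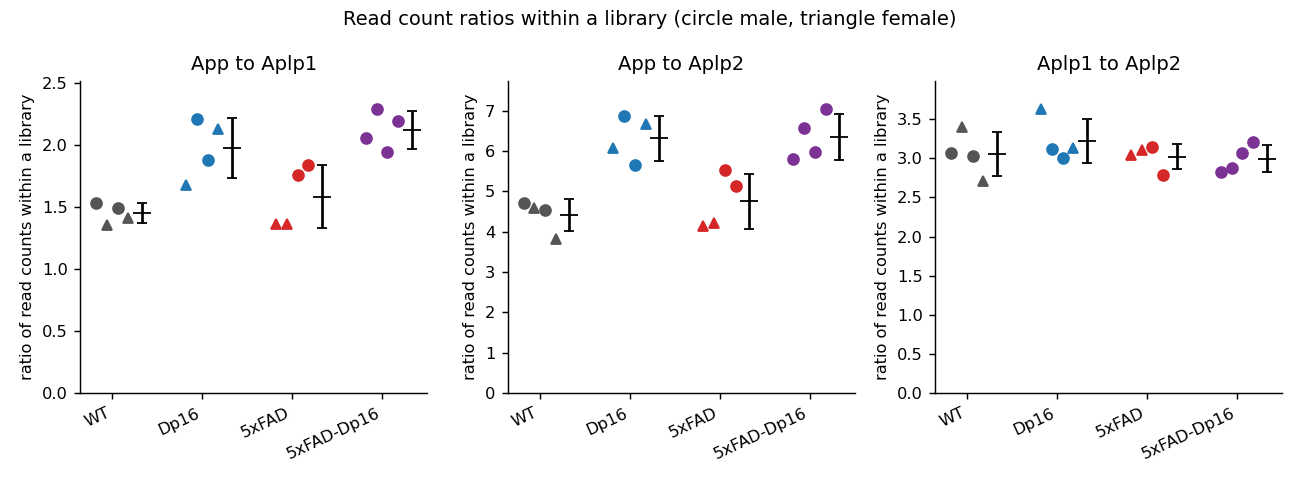
Ratios of read counts between members within a library (vertical axes, from 0) by genotype, with circles for males and triangles for females; the bar beside each group is the mean with its SD (n = 4). The App to Aplp2 ratio is 3.82 to 5.54 in the libraries without the duplication and 5.64 to 7.03 in those with it, while the Aplp1 to Aplp2 ratio overlaps between all groups.

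App was then set beside the other genes of the duplicated segment, chromosome 16 from 75540514 to 97962622 (GRCm38), which holds 384 genes of the table. Of these, 105 passed the filter on low counts. Their median log2 difference was 0.55 in Dp16 against WT, 0.51 in 5xFAD-Dp16 against 5xFAD and 0.51 in the mean, 1.46-fold, 1.43-fold and 1.42-fold, while the median of genes outside the segment was 0.00, 0.00 and 0.01. App ranked 67th from the highest of 105 in Dp16 against WT, 19th in 5xFAD-Dp16 against 5xFAD and 25th in the mean. In the mean, 15 of the 105 were called, all higher, beside 0.094% of all genes tested. Among the 36 segment genes whose mean log2 CPM reached 5, App ranked 29th, 3rd and 4th, beside medians of 0.58, 0.35 and 0.44. Among the 105, App thus lay between the quartiles (0.36 to 0.71) without the transgenes. With them App lay above the upper quartile (0.95), a change that did not pass the interaction test.

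**Figure D4:**
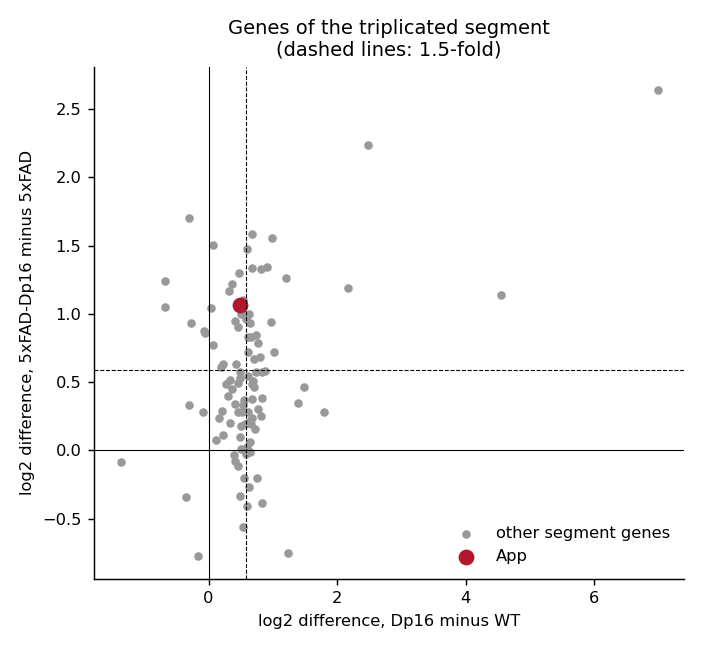
Log2 difference of each tested gene of the duplicated segment in Dp16 minus WT (horizontal axis) and in 5xFAD-Dp16 minus 5xFAD (vertical axis); solid lines mark no difference and dashed lines 1.5-fold. App (red) lies at 0.48 and 1.07, left of the vertical 1.5-fold line and above the horizontal one.

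Of the 7 tested protein-coding genes that start within 1 Mb of App, 1 passed the test, in Dp16 against WT and in the mean. Of all genes tested, 0.0176% and 0.094% were called in these comparisons. The neighbour that passed was Jam2, which encodes an adhesion molecule of cell junctions, at 58.2 CPM ± 3.82 in WT, 101 ± 11.5 in Dp16, 58.6 ± 10.3 in 5xFAD and 95.9 ± 7.12 in 5xFAD-Dp16 (SD, n = 4). Jam2 was 0.79 higher (SE 0.12, adjusted p = 0.0322) in Dp16 than in WT and 0.74 higher (SE 0.09, adjusted p = 0.00107) in the mean by edgeR. Gabpa, a transcription factor of the Ets family, stood at 13, 21.7, 14.2 and 22.9 CPM in the same order of groups, with log2 differences of 0.74 and 0.57 in the 2 backgrounds. Mrpl39, a protein of the mitochondrial ribosome, differed by 0.61 and 0.28, and Atp5j, a subunit of mitochondrial ATP synthase, by 0.65 and 0.06. The fitted differences of these 4 genes were each smaller with the transgenes, in contrast to App, whereas those of the remaining neighbours, Adamts1, Cyyr1 and Adamts5, were larger, as for App. No interaction was called. Adamts1, a secreted metalloprotease with at most 7.37 CPM as a group mean, differed by -0.30 and 1.70, and Cyyr1 and Adamts5, with means under 5 CPM, by 0.91 and 1.35 and by 0.36 and 0.45.

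The genes whose log2 CPM followed each member most closely over the 16 libraries were listed as a description, out of 10258 genes. These points share their library and its depth, length and GC trends. For App they were Ets2 (r = 0.96), a transcription factor, Synj1 (0.95), a phosphatase of synaptic vesicle recycling, Ppp2r1a (0.92), a scaffold subunit of protein phosphatase 2A, Dop1b (0.92) and Foxp4 (0.92). Ets2, Synj1 and Dop1b, 3 of the 5, lie in the duplicated segment. Ets2 stood at 32.3, 46.3, 24.9 and 50.3 CPM in WT, Dp16, 5xFAD and 5xFAD-Dp16, the same order of groups as App. For Aplp1 they were Slc22a17 (0.99), Pdk2, Bcan, Syt11 and Cntfr (0.98 each), and for Aplp2 they included Sv2a, Syt11, Dnm1 and Lrrn2 (0.98 to 0.99). None of the genes named here for Aplp1 or Aplp2 lies in the segment, and Syt11 is on both lists.

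Aplp1 and Aplp2 correlated with each other at r = 0.97 over the 16 libraries. App correlated with Aplp1 at 0.84 and with Aplp2 at 0.83, and after the genotype means were removed at 0.88 and 0.96. The members also moved with features of the libraries. Their correlation with the summed level of 10 excitatory neuron markers was 0.81 for App, 0.95 for Aplp1 and 0.96 for Aplp2, and with the endothelium markers 0.71, 0.92 and 0.89. For the inhibitory neuron markers the correlation was 0.11, 0.11 and -0.04, so the members did not follow both classes of neuron. With the length trend of a library it was 0.64, 0.72 and 0.77, and with its GC trend 0.66, 0.88 and 0.82. With the share of mitochondrial reads it lay between -0.01 and 0.10. The excitatory markers summed to 3141 to 6209 CPM in WT, 3489 to 6583 in Dp16, 2201 to 4308 in 5xFAD and 4439 to 6371 in 5xFAD-Dp16, so 5xFAD and 5xFAD-Dp16 did not overlap in them either. The part of these features in the members' differences was not tested beyond the length and GC settings. In bulk tissue, fewer cells of a type and less RNA per cell cannot be told apart.

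Read per 1000 CPM of excitatory neuron markers, App was 260, 260, 265 and 249 CPM in WT (mean 258 ± 6.86) and 324, 429, 287 and 399 in Dp16 (mean 360 ± 65.4). It was 222, 207, 246 and 292 in 5xFAD (mean 242 ± 37.0) and 339, 376, 339 and 351 in 5xFAD-Dp16 (mean 351 ± 17.6). On this scale WT and 5xFAD overlapped, Dp16 and 5xFAD-Dp16 overlapped, and within each background the duplication groups did not overlap. Of all genes tested, 0.805% in Dp16 against WT and 0.687% in 5xFAD-Dp16 against 5xFAD were higher without overlap on this scale. WT replicate 4, the highest WT library in CPM, was the lowest here. Aplp1 had means of 179 ± 9.34, 182 ± 19.5, 154 ± 10.1 and 166 ± 6.02 CPM per 1000, and Aplp2 58.8 ± 4.36, 56.5 ± 5.38, 51.0 ± 5.43 and 55.6 ± 3.89, in the order WT, Dp16, 5xFAD, 5xFAD-Dp16 (SD, n = 4). Aplp1 ran from 140 to 163 in 5xFAD and from 170.0 to 192 in WT, without overlap, as 0.311% of all genes did in that direction.

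**Figure D5:**
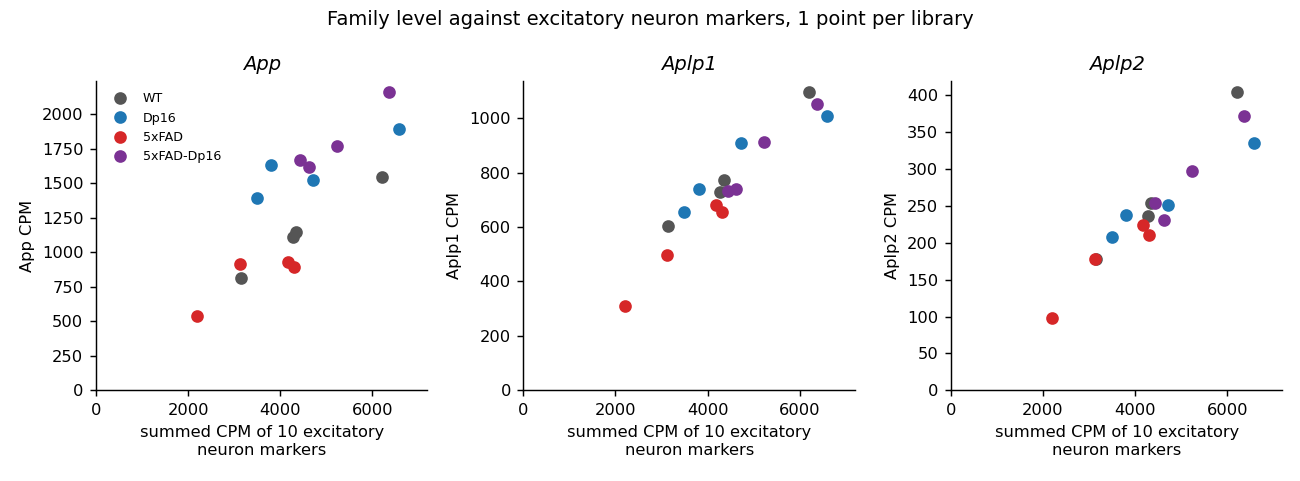
Level of each member in CPM (vertical axes, from 0) against the summed CPM of 10 excitatory neuron markers (horizontal axes, from 0), 1 point per library, coloured by genotype. For App the libraries with the duplication lie above those without it at like marker levels, and Aplp1 lies lower in 5xFAD (140 to 163 CPM per 1000 marker CPM) than in WT (170.0 to 192).

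The enzymes and partners of App were read from lists of 12 secretase genes, 17 cytoplasmic adaptors, 21 sorting and endocytosis genes, 16 extracellular and membrane partners and 12 enzymes that degrade amyloid-beta. All 78 genes were tested, and edgeR called 0 in either direction in each of the 7 comparisons. At an unadjusted p under 0.05 it found 5 in Dp16 against WT (1 higher; 6.41% of the lists beside 3.88% of all genes) and 29 in 5xFAD-Dp16 against 5xFAD (24 higher; 37.2% beside 23.8%). It found 14 in the mean over both backgrounds (10 higher; 17.9% beside 15%) and 12 in 5xFAD against WT (2 higher; 15.4% beside 10.7%). There were 6 in 5xFAD-Dp16 against Dp16 (7.69% beside 5.29%), 8 in 5xFAD-Dp16 against WT (10.3% beside 10.4%) and 13 in the interaction (16.7% beside 9.35%). DESeq2 called 11 of them (14.1%, beside 4.35% of all genes) in 5xFAD-Dp16 against 5xFAD, 10 higher and 1 lower, among them Ace, Apbb2, Numbl and Tnfrsf21 higher and Itm2a lower. It called Bace2 higher in the mean (1.28% of the lists beside 0.77% of all genes), Itm2c, Numbl and Thop1 lower in 5xFAD against WT (3.85% beside 1.37%), and 0 in the other 4 comparisons. In Dp16 against WT the list medians lay between -0.07 and 0.06 on the log2 scale, beside 0.00 for all genes. In 5xFAD-Dp16 against 5xFAD they were 0.27, 0.24, 0.34, 0.29 and 0.78, with a median of 0.00 for all genes. In 5xFAD against WT they were -0.13, -0.14, -0.15, -0.22 and -0.35, beside 0.02 for all genes, and 3 of 17 adaptors and 2 of 16 partners had a positive difference.

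Among the secretases, Bace2, a homologue of beta-secretase that lies in the duplicated segment, stood at 4.18 CPM ± 1.63 in WT, 8.20 ± 0.67 in Dp16, 3.18 ± 1.35 in 5xFAD and 6.66 ± 0.76 in 5xFAD-Dp16 (SD, n = 4). Its groups with and without the duplication did not overlap in either background, where 1.4% and 7.94% of all genes were higher without overlap, and its mean log2 difference of 0.95 (SE 0.22) did not pass the test (edgeR adjusted p = 0.171). Bace1, the beta-secretase of amyloid-beta production, stood at 57.9, 56.1, 48.0 and 64.5 CPM in WT, Dp16, 5xFAD and 5xFAD-Dp16, and Adam10, the main alpha-secretase, at 51.8, 57.8, 51.6 and 63.7.

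Of the adaptors that bind the tail motif printed above, Apbb2 differed by 0.56 (SE 0.19) and the endocytic adaptor gene Numbl by 0.40 (SE 0.14) in the mean over both backgrounds. Of the sorting genes, Snx17, a sorting nexin that binds the App tail, went from 81.5 CPM in WT to 68.7 in Dp16 and from 70.4 in 5xFAD to 67.9 in 5xFAD-Dp16, a mean log2 difference of -0.20, and Lrp10 differed by 0.61. Each of these 4 had an adjusted p of 0.322 by edgeR. Of the partners, Itm2a differed by -0.43 (adjusted p = 0.316) and Tnfrsf21, a death receptor, by 0.41 (adjusted p = 0.322). Of the degrading enzymes, Ace differed by 0.80 and Ide, the insulin-degrading enzyme, by 0.49, each with an adjusted p of 0.322.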

How the data were processed

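Whole-number read counts for 55385 genes were deposited by the authors with no normalization, and a second deposited table gives RPKM, used here for gene lengths and levels (100.0% of values matched count, length and total within 0.1%). HISAT2 2.1.0, HTSeq 0.6.1, SAMtools 1.5, FastQC 0.11.5, bcl2fastq and GRCm38 are named in the submitters' processing notes. Libraries were strand-specific per the labels' protocols; the strand setting of the counting is not given in the sources used here. The deposited counts are named for a later Gencode release than the M21 used here for coordinates and transcripts. Of their gene identifiers, 55144 matched Gencode M21 and 241 did not.

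Library totals ran from 12483286 to 20385010. CPM is the count per 1000000 of that total. In R 4.3.3, edgeR 4.0.16 (filterByExpr, 17019 genes; TMM factors 0.90 to 1.04; robust quasi-likelihood; genotype means plus sex; common biological coefficient of variation 0.27) was fitted to the 16 libraries, with 7 two-sided contrasts and Benjamini-Hochberg adjustment over all genes at 0.05. Ratios of counts were tested by two-sided exact permutation on the log2 scale (70 assignments) with SciPy 1.17.1. The edgeR fit was tested on simulated counts, the length correction on an added trend, and the permutation function on separated groups. Labels give separate samples per animal group but do not describe their collection, so p-values measure the spread between these samples. Alternatives were another scaling, DESeq2 1.42.0, no filter, no sex term, males only, 2-group fits, a replicate block, length and GC trends removed (lowess span 0.3), and libraries left out.

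The members and lists were chosen with earlier results of these data known. Named genes were the members, Thy1, tested protein-coding genes starting within 1 Mb of App, the 5 genes most correlated with each member (mean log2 CPM at least 3), and from each list the genes past the threshold or else the 2 with the smallest p in the mean over both backgrounds. Bace1, Adam10 and genes called by DESeq2 alone fall outside this rule and were chosen after their values were seen. Some genes that the rule selects are not reported here.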

Additional observations from a re-analysis of the deposited data

Results flagged for a closer look

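App in 5xFAD replicate 3, at 542.2 CPM, stood apart from the other 5xFAD libraries, which held 890 to 928 CPM. Its gap to the nearest library was 0.901 of the group's range, above Dixon's 95% limit for 4 samples. Of 24 sets of 4 values checked this was the one past the limit, and chance alone passes about 1 in 20. The same library was the lowest of its group for Aplp1 (308 CPM) and Aplp2 (98.0 CPM), had the lowest sum of excitatory neuron markers (2201 CPM) and the most negative length trend (-0.48), while its App to Aplp2 ratio (5.54) was the highest of its group. Without it the mean difference of App over both backgrounds was 0.68 (edgeR adjusted p = 0.0409).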

How the results depend on the processing

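Under another scaling of the libraries (RLE size factors) no member's fitted difference changed its direction or its call; the ratios do not depend on scaling. The numbers of genes called and the fitted differences that did change are given next by setting, with the log2 difference and adjusted p for members, and the cause was not tested. With no filter on low counts, 43 genes were called in Dp16 minus WT, 2215 in 5xFAD-Dp16 minus 5xFAD, 1097 in the mean duplication effect, 235 in 5xFAD minus WT, 45 in 5xFAD-Dp16 minus Dp16, 292 in 5xFAD-Dp16 minus WT and 346 in the interaction. There App (1.09), Aplp1 (0.76) and Aplp2 (0.74) passed in 5xFAD-Dp16 minus 5xFAD, Aplp1 (0.42) and Aplp2 (0.36) in the mean, App (-0.47), Aplp1 (-0.57) and Aplp2 (-0.57) in 5xFAD minus WT, App (0.62) in 5xFAD-Dp16 minus WT and Aplp2 (0.76) in the interaction.

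In males only, 0 genes were called in Dp16 minus WT, 3956 in 5xFAD-Dp16 minus 5xFAD, 2488 in the mean, 5 in 5xFAD minus WT and 2 in 5xFAD-Dp16 minus WT. App (1.20), Aplp1 (0.98) and Aplp2 (0.95) then passed in 5xFAD-Dp16 minus 5xFAD, and Aplp1 (0.59) and Aplp2 (0.58) in the mean. The 5xFAD group of this fit is replicates 3 and 4, of which replicate 3 is the library flagged above. Signs turned for Aplp2 in Dp16 minus WT (0.21) and for App (-0.0136), Aplp1 (-0.0724) and Aplp2 (-0.0386) in 5xFAD-Dp16 minus Dp16. In fits of 2 groups at a time, 0 genes were called in Dp16 minus WT and in 5xFAD-Dp16 minus WT, 5020 in 5xFAD-Dp16 minus 5xFAD, 7 in 5xFAD minus WT and 5 in 5xFAD-Dp16 minus Dp16. App (1.18), Aplp1 (0.96) and Aplp2 (0.93) passed in 5xFAD-Dp16 minus 5xFAD, and App (-0.0146), Aplp1 (-0.0735) and Aplp2 (-0.0398) turned in 5xFAD-Dp16 minus Dp16. With 5xFAD-Dp16 all male and a sex term in the model, these differences compare the same males as the males-only fit and repeat it.

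DESeq2 called 35 genes in Dp16 minus WT, 740 in 5xFAD-Dp16 minus 5xFAD, 131 in the mean, 234 in 5xFAD minus WT, 25 in 5xFAD-Dp16 minus Dp16, 106 in 5xFAD-Dp16 minus WT and 21 in the interaction, with App (1.06) and Aplp1 (0.74) passing in 5xFAD-Dp16 minus 5xFAD. With no sex term, 16 genes were called in 5xFAD-Dp16 minus 5xFAD, App among them (1.06), and 14 in 5xFAD-Dp16 minus WT. With the GC trend removed, a setting added after seeing the data, 3 genes were called in 5xFAD-Dp16 minus 5xFAD.

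With the length trend removed, 16 genes were called in Dp16 minus WT, 4 in 5xFAD-Dp16 minus 5xFAD and 35 in the mean. App then passed in Dp16 minus WT (0.45), 5xFAD-Dp16 minus 5xFAD (0.73) and 5xFAD minus WT (-0.42) and turned in 5xFAD-Dp16 minus Dp16 (-0.14), where the log2 ratios of App to Aplp1 (-0.14) and App to Aplp2 (-0.16) turned too. The Aplp1 to Aplp2 ratio turned in 5xFAD-Dp16 minus 5xFAD (0.13) and 5xFAD-Dp16 minus WT (0.0797), and the mean ratio differences over both backgrounds fell below the threshold at 0.24 for App to Aplp1 and 0.35 for App to Aplp2. With members at the length of their main transcript, added after seeing the data, 15, 3 and 35 genes were called in those 3 comparisons, and App passed in none of Dp16 minus WT (0.48, adjusted p = 0.684), 5xFAD-Dp16 minus 5xFAD (1.02, 0.057) and 5xFAD minus WT (-0.43, 0.256). The Aplp1 to Aplp2 ratio was then 0.12 in 5xFAD-Dp16 minus 5xFAD, 0.0768 in 5xFAD-Dp16 minus WT and 0.11 in the mean, the last past the threshold. Without WT replicate 2 and 5xFAD replicate 3, which stood apart in earlier work, 1 gene was called in Dp16 minus WT, 18 in 5xFAD minus WT and 5 in 5xFAD-Dp16 minus Dp16, and Aplp1 in Dp16 minus WT (-0.0601) and Aplp2 in 5xFAD-Dp16 minus WT (-0.0231) turned.

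The replicate numbers of the labels did not pair the libraries: same-numbered libraries correlated between -0.37 and 0.32 in their deviations from the group means, and 1 of 16 correlated best with its own number. With the replicate block, 0 genes were called in Dp16 minus WT, 9 in the mean and 3 in 5xFAD-Dp16 minus WT, App in the mean was 0.77 with an adjusted p of 0.161, and App in 5xFAD-Dp16 minus 5xFAD was 1.05 (0.252).

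Leaving out 1 library at a time gave 0 to 3 genes called in Dp16 minus WT, 0 to 42 in 5xFAD-Dp16 minus 5xFAD, 10 to 43 in the mean, 16 to 32 in 5xFAD minus WT, 2 to 5 in 5xFAD-Dp16 minus Dp16, 3 to 21 in 5xFAD-Dp16 minus WT and 0 to 1 in the interaction. App in 5xFAD-Dp16 minus 5xFAD ranged from 0.88 to 1.17 and passed in 2 of 16 fits, and App in the mean from 0.68 to 0.83. Aplp1 ranged from -0.10 to 0.21 in Dp16 minus WT and from -0.0006 to 0.32 in 5xFAD-Dp16 minus Dp16, and Aplp2 from -0.23 to 0.19 in Dp16 minus WT.

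With 4 libraries in a group, a single ratio comparison cannot go below an exact permutation p of 0.0286. The 5xFAD-Dp16 group is all male, so sex is separated from genotype there by the sex term of the other groups alone. Depth does not limit the members, with 1653 reads or more in each library.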
